A study of Mus musculus with 2 samples.

Results

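The prolactin genes of mouse chromosome 13 and the pregnancy-specific glycoprotein (Psg) and carcinoembryonic antigen-related cell adhesion molecule (Ceacam) genes of mouse chromosome 7 were followed in a map of trimethylated lysine 9 of histone H3 (H3K9me3). Members were chosen by symbol and chromosome alone: Prl or Prl followed by a digit on chromosome 13, and Psg followed by a digit or Ceacam on chromosome 7. The rule found 54 of 37273 genes in the mm9 annotation, of which 26 were Prl, 13 were Psg and 15 were Ceacam. In the mm10 annotation it found 55 of 49943 genes, the additional entry being the pseudogene Ceacam-ps1.

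H3K9me3 was measured by chromatin immunoprecipitation and sequencing in E14TG2a.4, an embryonic stem cell line from a male embryo of strain 129/Ola. Both libraries belong to 1 group and are labelled as biological replicates, each with its own biosample, so all values describe 1 line (n = 2). The series has no treatment and no second cell type, and a control library was not analysed here. The files are peak lists without read counts, so depth is unknown and no test between conditions can be made.

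Prolactin is a pituitary hormone, and its gene has been duplicated many times in rodents, giving relatives that are made mainly by trophoblast cells of the placenta and by the decidua. Psg genes encode secreted glycoproteins of the placenta, and Ceacam genes encode related proteins of the immunoglobulin superfamily, some of them anchored adhesion receptors and some made by trophoblast. H3K9me3 is a mark of silent chromatin, found at repeats and in clusters of gene families. Expression was not measured here, so the placental character of the genes is background and could not be checked in these files.

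A region called in both replicates (a shared region) is, in what follows, the stretch covered in both mm9 lists, whose wide regions have boundaries in steps of 200 bp. A promoter is the sequence within 1 kb of any transcript start. Gene bodies were read mainly with the narrow peaks of mm10 that the authors deposited as replicated. Fold enrichments are the authors' values for each region, and neither the labels nor the file headers state the background they were taken over. In bulk chromatin, a weaker mark in every cell and a mark in fewer cells cannot be told apart.

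The 3 sequences below come from the 3 member starts of the RefSeq promoter table whose upstream sequence held a replicated mm10 peak. They show how far the called peak reached into each promoter, which need not be how far the mark itself reached. Each is the 250 bases before a RefSeq transcript start (GRCm38.p6, the same coordinates as mm10), 5′ to 3′ on the gene's strand, with the bases under a replicated peak in capitals. Psg25 is at chr7:18532228-18532477 on the minus strand, Ceacam2 at chr7:25540005-25540254 on the minus strand, and the second start of Prl3c1 at chr13:27198653-27198902 on the plus strand.
Psg25: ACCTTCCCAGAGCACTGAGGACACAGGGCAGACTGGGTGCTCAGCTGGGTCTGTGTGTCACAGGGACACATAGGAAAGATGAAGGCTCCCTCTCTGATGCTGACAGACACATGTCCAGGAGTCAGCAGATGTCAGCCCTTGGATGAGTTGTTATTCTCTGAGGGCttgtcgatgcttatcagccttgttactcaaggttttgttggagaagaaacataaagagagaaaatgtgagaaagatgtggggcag
Ceacam2: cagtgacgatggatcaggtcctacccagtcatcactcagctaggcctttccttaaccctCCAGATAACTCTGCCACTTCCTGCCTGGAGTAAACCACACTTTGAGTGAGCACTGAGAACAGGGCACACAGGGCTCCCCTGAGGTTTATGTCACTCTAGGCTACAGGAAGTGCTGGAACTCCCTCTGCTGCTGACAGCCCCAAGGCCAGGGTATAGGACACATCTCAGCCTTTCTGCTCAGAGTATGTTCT
Prl3c1: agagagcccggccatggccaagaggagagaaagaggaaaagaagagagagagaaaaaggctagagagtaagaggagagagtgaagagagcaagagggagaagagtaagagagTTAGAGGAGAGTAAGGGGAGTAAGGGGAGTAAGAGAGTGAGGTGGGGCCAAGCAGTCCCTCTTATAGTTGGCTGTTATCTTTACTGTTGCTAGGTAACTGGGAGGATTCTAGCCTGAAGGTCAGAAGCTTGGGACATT

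The peak covered 165 of the 250 bases in Psg25 and stopped 86 bp short of the start. In Ceacam2 it covered 191 of the 250 bases and ran across the start. In Prl3c1 it covered 138 of the 250 bases at the second start, which lies inside the gene. The first start of Prl3c1 was 1293 bp from the nearest replicated peak.

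No Prl promoter carried a shared region (0 of 26), against 5.54% of protein-coding genes and 6.91% of all genes. Among Psg genes 3 of 13 promoters carried one, at Psg29, Psg25 and Psg17. Among Ceacam genes 2 of 15 did, at Ceacam3 and Ceacam2. The wide regions can reach a promoter from a neighbouring block, and in mm10 the narrow replicated peaks lay within 1 kb of a RefSeq start at the same 3 Psg genes of the 10 with a start in that table, where 7.66% of all its genes had one. They also did so at Ceacam2, of 13 Ceacam genes, and at Prl3c1, of 22 Prl genes.

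The prolactin cluster spans chr13:27149439-28243480 of mm9, 1094 kb from Prl to Prl5a1, with 23 Prl genes. It held 25 shared regions that covered 12.1% of the span, against 8.82% of chromosome 13. Replicate 1 covered 14.8% and replicate 2 covered 16% of the span. The mark lay between the genes: the bodies of the members were 1.66% covered and the sequence between them 14.1%. Of the 25 regions, 1 touched a member.

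**Figure D1:**
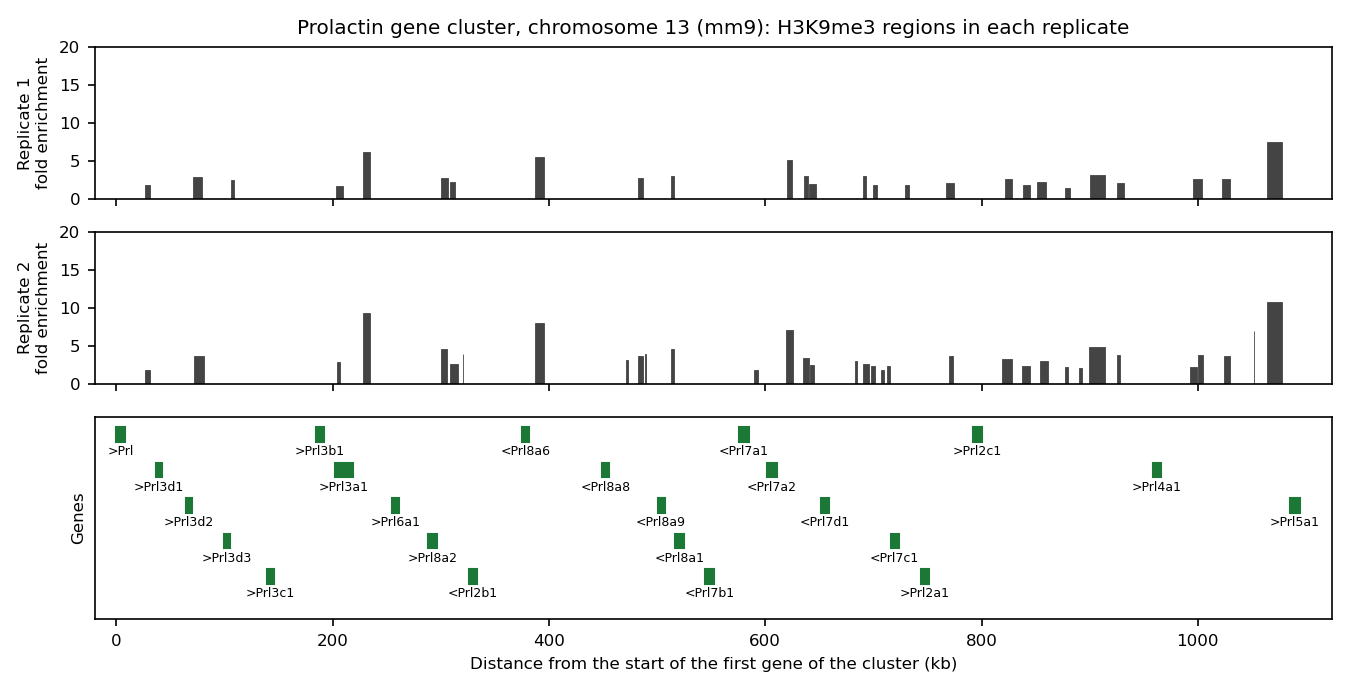
H3K9me3 regions of the prolactin cluster in mm9: the x axis is the distance in kb from the start of Prl, the height of each block is the authors' fold enrichment of that region in replicate 1 (top) and replicate 2 (middle), and the boxes at the bottom are the 23 Prl genes with arrowheads for their strand. The blocks stand between the gene boxes, and the highest, at 7.49 in replicate 1 and 10.7 in replicate 2, is just before Prl5a1.

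Prl itself, the pituitary hormone gene at the left end of the cluster, had its start 27.0 kb from the nearest shared region. That region, downstream of the gene, had fold enrichments of 1.85 in replicate 1 and 1.80 in replicate 2, a mean of 1.82 ± 0.03 (SD, n = 2). It was one of the weaker ones of the cluster, where the median fold was 2.63 in replicate 1 and 3.35 in replicate 2.

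The placental lactogens act on the prolactin receptor of the mother during pregnancy. A shared region was absent from the promoters and bodies of all 4 genes. Of protein-coding genes, 5.54% had one at a promoter and 20.7% over the body, so absence does not set 4 genes apart. Prl3d1, placental lactogen I of giant cells, started 5.88 kb from the nearest region, Prl3d2 7.43 kb, Prl3b1, placental lactogen II, 19.1 kb, and Prl3d3 20.3 kb. The longest stretch of the cluster without a shared region, 125 kb at chr13:27228401-27353400, held Prl3d3, Prl3c1 and Prl3b1 whole and the start of Prl3a1.

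Proliferins are growth factors of giant cells that act on blood vessels. Of the 5 named in the list, 4 were in the annotation, and their distances to the nearest shared region ran from 10.0 kb at Prl2c2 to 74.9 kb at Prl2c3, the farthest of all members. Prl2c2 had a region over its body in replicate 1, 13% of the body at a fold of 1.14, and none in replicate 2. Prl2c3, Prl2c2 and Prl2c5 lie apart from the main cluster at chr13:12883089-13284190, a stretch of 401 kb that was 33.0% covered in mm9 (37.5% in replicate 1, 35.8% in replicate 2) and 14.1% in mm10. All 3 gene bodies were free of shared mm9 regions (20.7% of protein-coding bodies had one) and of replicated mm10 peaks (30.8%). The sequence between the 3 genes was 35.4% covered in mm9. Reads are harder to place here: 33.4% of the 32-base words of this stretch occur once in the genome, and 14% of those in the body of Prl2c3. Neither the labels nor the headers say how reads that map to several places were handled, and the part of this in the empty bodies was not tested.

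Prl7d1, the proliferin-related protein, which restrains vessel growth, started 14 kb from the nearest shared region. Prl8a2, the decidual prolactin-related protein, was 12.2 kb away, and Prl4a1, which acts on uterine natural killer cells, 30.5 kb. None of the 3 had a marked body in either build, against 20.7% of protein-coding genes in mm9 and 30.8% in mm10.

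Prl3a1 was the Prl gene nearest to a shared region, 2.10 kb, and the only one with a shared region in the body. The region lay in an intron and covered 17.4% of the body, against 38.3% in replicate 1's own list and 17.4% in replicate 2's. Its fold was 1.65 in replicate 1 and 2.91 in replicate 2 (2.28 ± 0.89, SD, n = 2). No replicated mm10 peak lay in the body of Prl3a1. Of the covered bases, 85.3% began a 16-base word found at least 50 times in the genome, a measure of repeats, and 14.1% began a 32-base word found once.

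Prl3c1 showed the reverse: it had no shared mm9 region and was the 1 Prl gene of 26 with a replicated mm10 peak in the body, where 30.8% of protein-coding genes had one. Its 2 peaks covered 12.1% of the body, 8.49% with the list of replicate 1 and 6.14% with that of replicate 2. The larger fold was 3.90, below the median of 4.20 over all replicated peaks. The Prl genes marked in the body thus differed between the builds, and all other Prl bodies were unmarked in both.

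The strongest shared region of the cluster was 14 kb wide at chr13:28213401-28227400, 6.95 kb upstream of Prl5a1. Its fold was 7.49 in replicate 1 and 10.7 in replicate 2 (9.09 ± 2.26, SD, n = 2). A region 6.24 kb upstream of Prl8a6, at chr13:27536801-27544600, had folds of 5.53 and 7.93 (6.73 ± 1.70). One at chr13:27377801-27384200, between Prl3a1 and Prl6a1, had folds of 6.17 and 9.25 (7.71 ± 2.18). All 3 exceeded the cluster median of their replicate, and replicate 2 was the higher in each.

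The Psg and Ceacam cluster spans chr7:17256680-19406956 of mm9, 2150 kb from Ceacam15 to Psg17, with 13 Psg and 8 Ceacam genes. It held 85 shared regions covering 18.5% of the span, against 9.34% of chromosome 7. Replicate 1 covered 21.1% and replicate 2 covered 24.6%. Coverage in the 500 kb on either side was 1.00% on the Ceacam15 side and 3.92% on the Psg17 side. Unlike in the prolactin cluster, bodies and the sequence between them were covered alike, at 18.5% each, and 16 of the 85 regions touched a member.

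In mm10 the cluster was 6.25% covered by replicated peaks, against 4.01% of chromosome 7. The list of replicate 1 covered 4.03% of the cluster and that of replicate 2 covered 7.28%. The prolactin cluster was 3.41% covered by replicated peaks in mm10, against 4.40% of chromosome 13. The lists of replicate 1 and replicate 2 covered 2.10% and 3.87% of it. Both chromosome shares are those of the replicated peaks and not of either replicate's list. The Psg and Ceacam cluster thus had more than its chromosome in both builds. The prolactin cluster had more than its chromosome in mm9 and less in mm10.

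**Figure D2:**
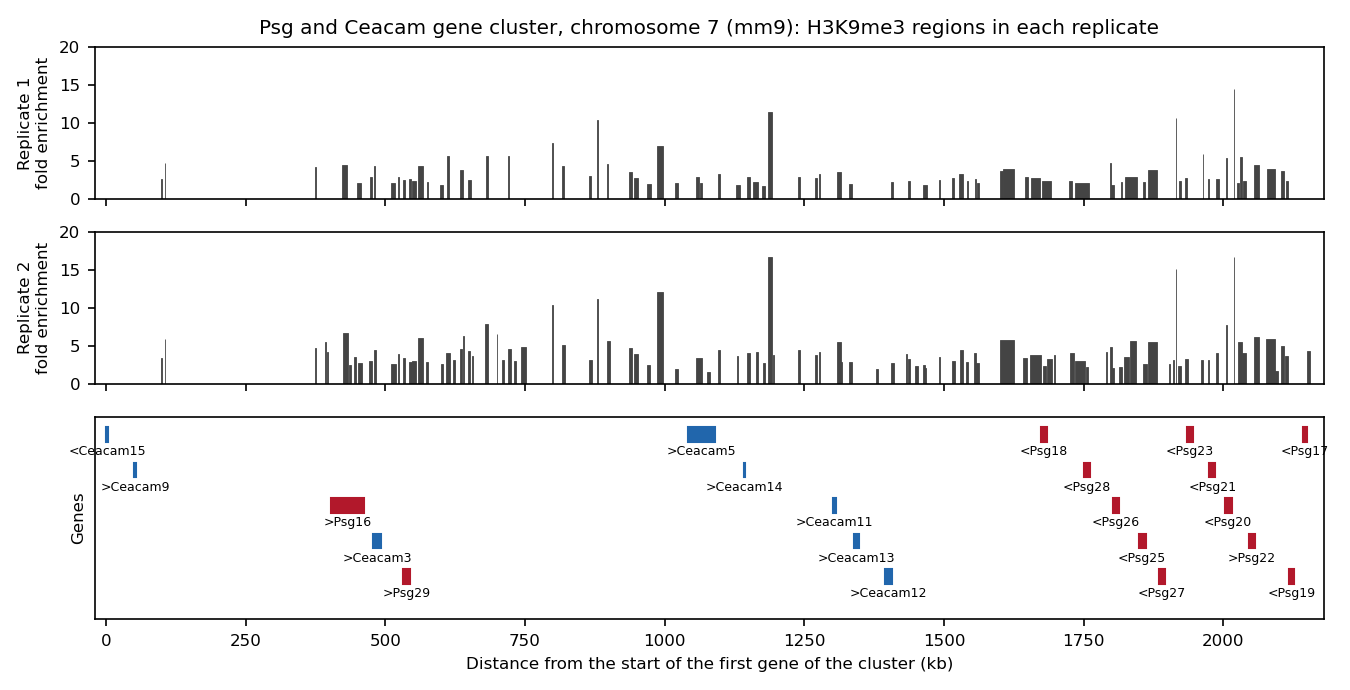
H3K9me3 regions of the Psg and Ceacam cluster in mm9: the x axis is the distance in kb from the start of Ceacam15, the height of each block is the authors' fold enrichment in replicate 1 (top) and replicate 2 (middle), and the boxes are the 13 Psg (red) and 8 Ceacam (blue) genes with arrowheads for their strand. Blocks are dense over the right-hand Psg genes, and a gap of 268 kb lies to the right of Ceacam9.

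The stretches of neighbouring members differed in coverage, and their bounds were set after the map was seen. That of the 11 Psg genes from Psg18 to Psg17, 476 kb at chr7:18931157-19406956, was 31.1% covered in mm9 (34.9% in replicate 1, 39.0% in replicate 2) and 10.0% in mm10 (6.44% and 11.4%). The stretch from Psg16 to Psg29 was 23.6% covered in mm9 (26.3% and 35.9%) and 11.1% in mm10 (8.27% and 12.9%), so the order of these 2 Psg stretches differed between the builds. The stretch from Ceacam5 to Ceacam12 was 14.8% covered in mm9 and 5.37% in mm10, and that from Ceacam15 to Ceacam9 0% and 1.41%. The 268 kb without a shared region, chr7:17363401-17631200, held no member and 13 other protein-coding genes, among them Calm3, a calmodulin gene, and part of Hif3a.

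Psg29 had the best covered body of all members in mm10, 40.4%, with 6 replicated peaks. The lists of replicate 1 and replicate 2 covered 30.3% and 37.5%. In mm9 47.9% of its body was shared, and a region of 3.60 kb lay over its start with folds of 2.42 in replicate 1 and 3.32 in replicate 2 (2.87 ± 0.64, SD, n = 2). Of the 32-base words of its covered body in mm9, 95.3% occur once in the genome, and how reads were placed there was not tested. Psg29 was marked at its promoter and within its body in both builds. In mm9 its shared regions lay over the start and the far end of the body, and not over the middle.

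Psg25 had folds of 2.24 and 2.64 at the promoter (2.44 ± 0.28), from a region whose near edge lies 0.976 kb downstream of the start. Its body was 25.6% covered in mm9 and 24.2% in mm10, with 5 peaks. The list of replicate 1 covered 12.1% in mm10 and that of replicate 2 covered 25.5%. The narrow peak printed above lies upstream of the start, and replicate 2's own wide mm9 region also crosses the start.

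Psg17 encodes a glycoprotein known to bind the tetraspanin CD9. Its marked region began 0.0450 kb upstream of the start, with folds of 3.13 in replicate 1 and 4.32 in replicate 2 (3.73 ± 0.84, SD, n = 2), and the body held no shared region. Only replicate 2 reached into the body, over 4.64% of it in mm9.

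Psg18 and Psg28 had the most of their bodies in shared mm9 regions among Psg genes. Psg18 was 63.0% covered, 80.0% in replicate 1 and 63.0% in replicate 2, at folds of 2.30 and 2.39 (2.35 ± 0.06). Psg28 was 60.0% covered, 85.2% and 60.0% in the replicates, at folds of 2.06 and 2.96 (2.51 ± 0.64). Both are low folds, and the narrow mm10 peaks showed less: 11.0% of Psg18 and 0% of Psg28. Repeated words made up 1.36% of the covered bases of Psg18 and 4.57% of those of Psg28, fewer than the 18.7% of the whole genome. Unique 32-base words made up 65.0% and 52.8% of those bases. At Psg18 the shared region in the body did not reach the promoter window, nor did the next one upstream, 1.04 kb from the start. In the list of replicate 1 alone, a region at a fold of 2.30 lay in the promoter window.

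Psg16, whose transcripts are known also from brain, has the longest body of the Psg genes, 59.4 kb. It was 22.6% covered in mm9, 27.9% in replicate 1 and 41.4% in replicate 2, with folds of 4.48 and 6.62 (5.55 ± 1.52, SD, n = 2). In mm10 4 replicated peaks covered 11.3%, the strongest at a fold of 18.0, the highest of any replicated peak in the cluster. Its starts were unmarked, the nearest region being 7.92 kb away.

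Psg20 was 23.2% covered in mm9 with folds of 5.36 and 7.78 (6.57 ± 1.71). Of those covered bases 92.0% were repeated words and 1.36% were unique 32-base words, and no replicated mm10 peak lay in the body. A region 4.07 kb upstream of its start, 0.600 kb wide at chr7:19275601-19276200, had folds of 14.5 in replicate 1 and 16.7 in replicate 2 (15.6 ± 1.52), and had the highest fold of the cluster in replicate 1.

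Of the other Psg genes, Psg22, a highly expressed member in early placenta that here stands on the strand opposite to its neighbours, had 4.33% of its body covered at folds of 4.50 and 6.20 (5.35 ± 1.21). Psg23 had 8.95% and Psg26 6.99% in shared regions. Psg21, Psg27 and Psg19 had no shared region in the body. At the promoter of Psg26 replicate 2 alone had a region, at a fold of 2.22. No replicated mm10 peak lay in the body of any of these genes. Psg27 was the Psg gene farthest from a region, with its start 15.3 kb away.

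Ceacam2, an adhesion receptor related to Ceacam1, was the Ceacam gene with the most covered body in both builds. A region of 12.4 kb lay over its start, with folds of 3.41 in replicate 1 and 5.62 in replicate 2 (4.51 ± 1.56, SD, n = 2). The body was 51.0% covered in mm9 and 24.5% in mm10 by 11 peaks, with 16.6% and 24.9% in the lists of the replicates. Ceacam1, its neighbour, a receptor of epithelium, endothelium and immune cells, had no shared region in mm9. Replicate 1 alone covered 23.9% of it, at a fold of 1.68, and in mm10 1 replicated peak covered 4.02%. Unique 32-base words made up 45.6% of the body of Ceacam2 and 38.6% of that of Ceacam1, and the part of this in the calls was not tested.

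Ceacam3 had a region 0.852 kb downstream of its nearest start with folds of 4.29 and 4.47 (4.38 ± 0.13). The body was 18.6% covered in mm9 and 16% in mm10. Ceacam5 was 19.6% covered in mm9 with folds of 2.81 and 3.34, and 8.48% in mm10. Ceacam12 was 12.7% covered with folds of 2.23 and 2.78, and 10.9% in mm10. These 3 genes lie inside the cluster and were marked in the body in both builds.

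Ceacam20, of intestinal microvilli, was covered over 7.78% of its body in mm9, 12.5% in replicate 1 and 17.1% in replicate 2. In mm10 4.57% was covered by replicated peaks, with 0% in the list of replicate 1 and 4.36% in that of replicate 2. Ceacam16, a protein of the inner ear, had 1 replicated mm10 peak over 1.75% of the body, and Ceacam19 had 1 over 3.82%. Neither had a shared mm9 region in the body. Ceacam10, Ceacam18, Ceacam15, Ceacam9, Ceacam11, Ceacam13 and Ceacam14 had no marked body in either build. Ceacam9 was the farthest Ceacam gene from a shared region, at 48.1 kb, and Ceacam18, which lies alone on the chromosome, was 46.1 kb away.

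**Figure D3:**
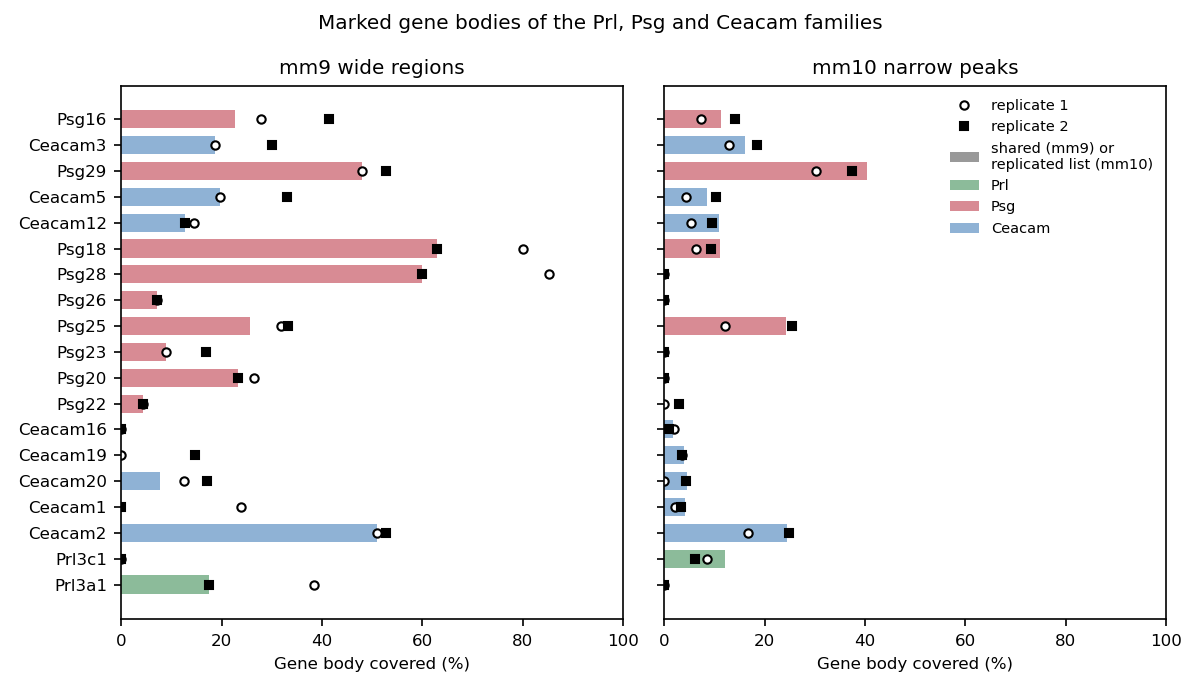
Share of each gene body (x axis, %) covered in mm9 by wide regions (left) and in mm10 by narrow peaks (right), for the members with coverage in either build: bars give the shared regions or the replicated list, circles replicate 1 and squares replicate 2. Psg29, Psg25 and Ceacam2 are covered by 24.2% or more in both panels, while Psg28 has 60.0% at left and 0% at right.

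Over the families, replicated mm10 peaks touched the bodies of 4 of 13 Psg genes, 8 of 16 Ceacam genes and 1 of 26 Prl genes, with the share of 30.8% among all protein-coding genes already given. The counts depend on gene length as well as on the mark, and the median Prl body is 7.57 kb long, against 15.4 kb for protein-coding genes. By bases, 0.410% of all Prl bodies, 8.62% of Psg bodies and 7.06% of Ceacam bodies were covered, against 2.30% of protein-coding bodies. Bodies with at least 10% covered were 1 Prl, 4 Psg and 3 Ceacam, against 5.34% of protein-coding genes. With shared mm9 regions 1 of 26 Prl, 9 of 13 Psg and 5 of 15 Ceacam bodies were touched, against 20.7%.

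Exons were read in mm9. No exon base of a Prl gene was covered, 26.8% of Psg exon bases were, and 9.35% of Ceacam exon bases, against 2.24% of those of protein-coding genes. Of the 13 Psg genes, 8 had a shared region over an exon, and of the 15 Ceacam genes 4 did, against 9.93% of protein-coding genes. Introns were covered over 1.65% in Prl, 20.0% in Psg and 13.9% in Ceacam genes, against 3.73%.

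The start of a Psg gene was a low point within marked surroundings. In the 10 kb upstream of the 5′ end 24.0% of Psg bases were covered, in the last kb before it 7.55%, in the first kb after it 7.88%, and over the 10 kb downstream 18.6%. Among the 1 kb bins within 20 kb of a Psg start, the one from 7 kb downstream was lower still, at 4.78%, and the 13 genes are neighbours that share some of the same regions. Ceacam genes had 17.6% upstream, 6.67% and 6.87% beside the start, and 13.2% downstream. Prl genes had 5.43% upstream, 0% in the kb on either side, and 2.5% downstream, while protein-coding genes had 5.20%, 2.38%, 2.15% and 3.71%.

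**Figure D4:**
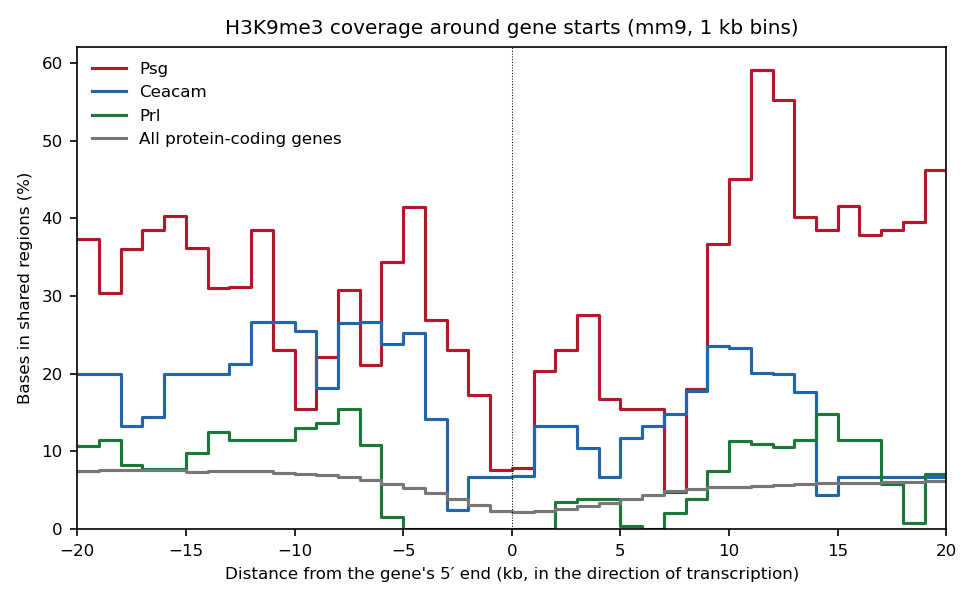
Share of bases in shared mm9 regions (y axis, %) in 1 kb bins by distance from the 5′ end of the gene (x axis, kb, positive in the direction of transcription) for Psg, Ceacam, Prl and all protein-coding genes. All 4 lines are low at the start, with Psg at 7.55% and 7.88% in the bins beside it and Prl at 0%.

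The distance from a start to the nearest shared region had a median of 3.50 kb for Psg genes (0 to 15.3 kb), 8.33 kb for Ceacam genes (0 to 48.1 kb) and 18.5 kb for Prl genes (2.10 to 74.9 kb). The median over protein-coding genes was 26.9 kb. Within 10 kb of a shared region were 11 of 13 Psg, 10 of 15 Ceacam and 8 of 26 Prl genes, against 26.1% of protein-coding genes. A window of 2.5 kb either side of a start met a shared region in 5 Psg, 2 Ceacam and 1 Prl gene (9.08% of protein-coding genes), and one of 5 kb in 8 Psg, 4 Ceacam and 1 Prl gene (15.0%). The 1 Prl gene was Prl3a1 in both. With replicated mm10 peaks and RefSeq starts, 5 kb gave 6 Psg, 6 Ceacam and 4 Prl genes (22.9% of the table): Prl3c1, Prl8a9, Prl7a2 and Prl5a1 for Prl.

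**Figure D5:**
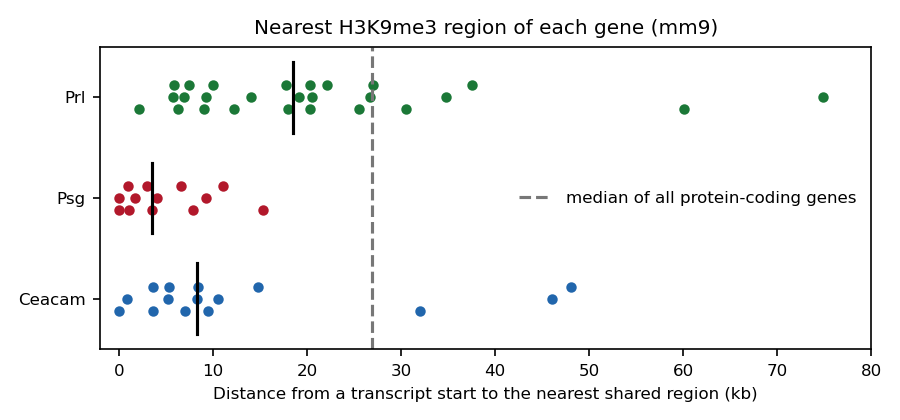
Distance in kb from the nearest transcript start of each gene to the nearest shared mm9 region (x axis), by family, with 1 point per gene, black bars for the family medians and a dashed line for the median of all protein-coding genes. The Psg points all lie at 15.3 kb or less, and the Prl points reach 74.9 kb.

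Where both mm9 lists had a region in the body of the same member, replicate 2 had the higher fold in 1 of 1 Prl, 9 of 9 Psg and 5 of 5 Ceacam genes. In the mm10 lists, replicate 1 was the higher at Psg25, Prl3c1, Ceacam16 and Ceacam19. Replicate 2 was the higher at the other members with a body peak in both mm10 lists. In mm9, regions present in the body in 1 replicate alone were seen at Prl2c2 and Ceacam1 in replicate 1, and at Psg17 and Ceacam19 in replicate 2. In mm10, body peaks in 1 replicate's list alone were seen at Prl2c3 and Psg19 in replicate 1, and at Psg22, Psg17 and Ceacam20 in replicate 2. Over all shared regions of the clusters, replicate 2 had the higher fold in 79 of 85 regions of the Psg and Ceacam cluster and in 22 of 25 of the prolactin cluster. Over the whole genome, the median fold of the mm9 lists was also higher in replicate 2, 3.38 against 2.84 in replicate 1. Replicate 1 was the higher at chr7:19219601-19220600, 11.4 kb from Psg21, with folds of 5.87 and 3.09. With 2 replicates, each SD rests on a single difference.

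The shared regions of both clusters were richer in repeated sequence than the rest of the span. In the prolactin cluster 59.9% of their bases began a repeated 16-base word, against 21.6% of the rest, and in the Psg and Ceacam cluster 47.3% did, against 26.8%. Over all shared regions of the genome the share was 51.4%. CpG pairs stood at 9.39 per kb in the regions of the prolactin cluster and 3.88 per kb in its rest, and at 9.31 and 7.56 per kb in the Psg and Ceacam cluster. Within gene bodies the covered bases were repeated over 27.4% in Psg and 34.4% in Ceacam genes, against 16.1% and 13.8% of their uncovered bases. In Prl genes the share was 85.3% of the 3.00 kb covered, all of it in Prl3a1, against 10.3% of the uncovered bases.

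The promoters themselves were poor in CpG. Over 1 kb either side of the start the median was 4.50 per kb for Prl, 3.50 for Psg and 7.0 for Ceacam genes, against 30.5 for protein-coding genes. Unique 32-base words made up a median of 92.0% of Prl, 81.4% of Psg and 93.3% of Ceacam promoters, against 98.4%. The lowest value, 17.6%, belonged to Prl2c3.

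Psg promoters resemble one another and share a short motif, also present in some Ceacam promoters, which is shown here because marking differed among the genes that hold it. Of the members, 45 had a promoter in the RefSeq table, with 22 Prl, 10 Psg and 13 Ceacam genes. The letters GATAAG, the core read by GATA factors, were searched on both strands of the 300 bases from 250 before to 50 after each start. They occurred in 9 of 10 Psg, 4 of 22 Prl and 3 of 13 Ceacam promoters, and in 8.58% of all genes of the table. In the 9 Psg promoters the match reads CTTATC on the gene's strand and begins 69 to 108 bases before the start. Each line gives 40 bases 5′ to 3′ on the gene's strand (GRCm38.p6), with the match in capitals. Psg29 is on the plus strand at chr7:17203388-17203427 and the others are on the minus strand, Psg18 at chr7:18355061-18355100, Psg28 at chr7:18432109-18432148, Psg26 at chr7:18484235-18484274, Psg25 at chr7:18532281-18532320, Psg27 at chr7:18567367-18567406, Psg23 at chr7:18616551-18616590, Psg21 at chr7:18656772-18656811 and Psg17 at chr7:18821652-18821691. Ceacam3 at chr7:17150131-17150170 and Ceacam5 at chr7:17713165-17713204, both on the plus strand, hold the match at a like distance, beginning 71 and 70 bases before the start.
Psg29: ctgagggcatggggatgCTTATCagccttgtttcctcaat
Psg18: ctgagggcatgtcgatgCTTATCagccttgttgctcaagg
Psg28: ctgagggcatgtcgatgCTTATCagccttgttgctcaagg
Psg26: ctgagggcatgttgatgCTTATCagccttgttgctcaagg
Psg25: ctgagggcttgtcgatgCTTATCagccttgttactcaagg
Psg27: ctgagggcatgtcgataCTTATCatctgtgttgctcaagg
Psg23: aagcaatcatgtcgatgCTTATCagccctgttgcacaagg
Psg21: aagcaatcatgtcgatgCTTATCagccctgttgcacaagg
Psg17: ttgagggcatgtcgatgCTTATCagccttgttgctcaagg
Ceacam3: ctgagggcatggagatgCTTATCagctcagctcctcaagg
Ceacam5: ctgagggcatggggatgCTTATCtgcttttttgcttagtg

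The stretch was the same in Psg18 and Psg28, and the same in Psg23 and Psg21, whose whole promoters were 96.7% and 96.4% identical. The median identity between Psg promoters was 76.5%, against 51.2% between Prl and 46.6% between Ceacam promoters. Near-identical pairs were not limited to Psg: 4 Prl, 2 Psg and 0 Ceacam pairs were at least 90% identical. The window of Psg20, the one without the match, shares a run of 45 identical bases with that of Psg17, from base 3 of the Psg20 window and 11 bases after the match in Psg17. The Psg20 window therefore begins past the place of the match, and its identity to the others, at most 50.4%, compares sequence that is not aligned on the same start. The nearest replicated mm10 peak was 77 bp from the start of Psg29, 86 bp from that of Psg25 and 398 bp from that of Psg17. Of the near-identical Psg pairs, Psg21 stood 2064 bp and Psg23 33909 bp from the nearest replicated peak, while Psg18 stood 4986 bp and Psg28 4587 bp away.

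The promoter of Prl is shown as an unmarked one, 250 bases before the start at chr13:27057320-27057569 on the plus strand of GRCm38.p6, with TATAAA on either strand in capitals, where matches on both strands overlap.
Prl: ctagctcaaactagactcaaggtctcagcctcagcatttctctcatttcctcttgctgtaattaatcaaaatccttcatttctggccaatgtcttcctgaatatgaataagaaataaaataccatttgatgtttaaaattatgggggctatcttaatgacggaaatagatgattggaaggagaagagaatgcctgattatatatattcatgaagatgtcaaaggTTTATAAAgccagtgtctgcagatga

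TATAAA, the TATA box letters, began 24 bases before the start of Prl. It was found in 5 of 22 Prl, 0 of 10 Psg and 4 of 13 Ceacam promoters, and in 15.7% of all genes of the table. The letters GCCNNNGGC, read by AP-2 factors, were in 1 Prl, 0 Psg and 4 Ceacam promoters (18.5% of all genes), and CANNTG, the E-box, in 15 Prl, 10 Psg and 10 Ceacam promoters (75.0%). The lactogen genes Prl3d1, Prl3d2 and Prl3d3 also held CTTATC, beginning 94, 111 and 115 bases before the start, and none had a replicated peak within 12143 bp. A match is a description of the letters and not a binding site.

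The receptors and signal genes of the prolactin and growth hormone pathway were read beside the clusters. The promoter of 1 of the 12 genes met a shared region, against 5.54% of protein-coding genes: Gh, growth hormone, a relative of prolactin on chromosome 11. Its body was 51.2% covered, with folds of 7.81 in replicate 1 and 11.6 in replicate 2 (9.69 ± 2.66, SD, n = 2). Prlr, the prolactin receptor, had 4.38% of its body covered at folds of 4.97 and 6.44, and Ghr, the growth hormone receptor, 6.25% at folds of 6.23 and 9.79. The kinase gene Jak2, the transcription factor genes Stat5a and Stat5b, the feedback inhibitors Socs1, Socs2, Socs3 and Cish, Cd9 and Tgfb1 had no shared mm9 region. In the body of Tgfb1 replicate 2 alone had an mm9 region, at a fold of 7.53. With replicated mm10 peaks 5 of the 12 bodies were touched, against 30.8% of protein-coding genes, Stat5b over 1.57% and Tgfb1 over 9.98%.

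Markers of other cell types were read for promoter marking, which does not tell the cell type. A shared region lay at 0 of 8 stem cell, 0 of 8 trophoblast and 2 of 6 fibroblast marker promoters (S100a4 and Lum), against 5.54% of protein-coding genes. Within 5 kb the counts were 1 (Zfp42), 0 and 4 (S100a4, Thy1, Lum and Col1a1), against 15.0%.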

How the data were processed

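H3K9me3 was mapped in 2 biological replicates of E14TG2a.4, which form 1 group. For each peak the authors deposited a fold enrichment, a linear ratio. The mm10 lists (narrowPeak) hold −log10 p and −log10 q as deposited by the authors, and the mm9 lists (broadPeak) hold a linear p-value and q-value as deposited by the authors. Per the deposited file lists, the replicated mm10 list was made from the pooled list and both per-sample lists. Aligner, caller, versions, filters and the handling of multiply mapping reads are stated neither in the labels nor in the headers, and the last can add or remove regions at repeats. Wide mm9 regions reach genes from further away, and narrow mm10 peaks break a block into pieces.

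Members, role lists, motifs and the rule for named genes were chosen with earlier results of these data known. That rule named members with a shared region at a promoter or a replicated peak in the body, a fixed set of others, and the nearest and farthest members. Further members are named after their values were seen, so that each is accounted for. Promoters, exons and sequence words used mm9 with GENCODE M1, and bodies used mm10 with RefSeq gene positions of GRCm38.p6. Overlap needed at least 1 bp. A cluster was a run of at least 5 members with gaps of at most 1 Mb. Coverage, distances and word counts were computed with Python 3.11.15 and numpy 2.4.6, promoter identity with Biopython 1.88. The scripts were tested on simulated data. With 1 group no test was run. Many values, though not all, stand beside those of each replicate, of all protein-coding genes or of the chromosome. Windows of 2.5 and 5 kb, the 5′ end alone, single replicates, pooled lists, a fold of at least 4, −log10 q of at least 2, merged peaks and larger overlaps were tried as alternatives.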

Additional observations from a re-analysis of the deposited data

How the results depend on the processing

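Over the counts and coverages of the 3 families and 2 clusters, 89 alternatives were tried. Of these, 54 left the value within the limits set and 35 moved it, and the cause was not tested. Values within the limits could still shift. Marked Psg bodies went from 4 to 6 without replicate 1, and coverage of the Psg and Ceacam cluster from 6.25% to 4.03% without replicate 2. Marked promoters of Prl, 0, became 1 at 2.5 kb and 1 at 5 kb. Those of Psg, 3, became 5 at 2.5 kb, 8 at 5 kb, 5 with the third mm9 list (8.47% of protein-coding genes), 0 at a fold of at least 4 (1.82%) and 1 where 50% of the window had to be covered (3.23%). Those of Ceacam, 2, became 4 at 5 kb, 1 at a fold of at least 4 and 1 at 50% of the window. With replicated mm10 peaks and RefSeq starts, chosen after seeing the data, the 1 kb window gave 1 Prl and 1 Ceacam promoter and the 5 kb window 4 Prl, 6 Psg and 6 Ceacam promoters. Leaving out 1 replicate gave 0 Prl, 4 Psg and 2 Ceacam promoters either way (7.83% of protein-coding genes without replicate 1, 6.33% without replicate 2). The added Psg gene was Psg26 without replicate 1 and Psg18 without replicate 2.

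Marked bodies of Prl, 1, became 2 with the pooled list (38.0% of protein-coding genes) and 0 at a fold of at least 4 (22.7%), and were 1 to 2 without a replicate (35.9% and 34.1%). Those of Psg, 4, became 7 with the pooled list and 9 with mm9 regions, and were 5 to 6 without a replicate. Those of Ceacam, 8, became 5 at a fold of at least 4, 5 with mm9 regions and 3 where 10% of the body had to be covered. Without a replicate the Ceacam bodies were 7 to 8. Body coverage of Prl, 0.410%, was 0% at a fold of at least 4, 0.682% with peaks within 1 kb merged, 1.44% with mm9 regions, and 0.208% to 0.397% without a replicate. Psg coverage, 8.62%, was 5.67% at a fold of at least 4, 21.3% with mm9 regions and 5.76% to 9.60% without a replicate. Ceacam coverage, 7.06%, was 13.2% with mm9 regions and 4.22% to 7.41% without a replicate. The prolactin cluster, 3.41% covered, was at 12.1% with mm9 regions and 2.10% to 3.87% without a replicate. The Psg and Ceacam cluster, 6.25%, was at 18.5% with mm9 regions and 4.03% to 7.28% without a replicate.

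No paired analysis was possible because the series has 1 group. With peak lists alone, depth limits every absent call: a gene without a region is one where no region was called.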

Other observations

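The span of the Psg and Ceacam cluster also holds other genes. Of 18 other protein-coding genes in mm9, none met a shared region at a promoter. In the body 2 did, Hif3a over 5.82% and Gm5155 over 5.50%. Across all protein-coding genes 20.7% met one in the body and 5.54% at a promoter, so counts this low do not set 18 genes apart. Of 14 noncoding entries, 6 were covered whole, 5 of them among the 8 annotated as miRNA, which are short. In mm10, replicated peaks touched 5 of 18 other protein-coding bodies, among them Hif3a and Gm5155, against 30.8% of protein-coding genes. They also touched 8 of 30 other entries. No genome-wide share is given here for entries that are not protein-coding, in either build. In the span of the prolactin cluster, the noncoding transcript 4930511O05Rik was the one other gene with a shared region at its promoter, and its body was not covered. Pvr, the poliovirus receptor gene between Ceacam19 and Ceacam20, had 32.3% of its body in shared regions.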
